A study of Schizosaccharomyces pombe with 21 samples.

Results

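Messenger RNA levels of 139 genes for membrane transport proteins were followed in fission yeast (Schizosaccharomyces pombe) during phosphate starvation in cells given cycloheximide, which blocks translation elongation, and in cells given no drug. The genes are the rows of the deposited table whose product is annotated as a transmembrane transporter, 159 in all, less 20 that were set aside by name, among them the phosphate and glycerophosphodiester transporter genes pho84 and tgp1. They are 139 of the 6988 genes in the table, and 60 of them carry a gene symbol while 79 are known by a systematic identifier. Polyadenylated RNA was sequenced from 7 groups of 3 libraries, which the labels call biological replicates, and all 21 came from strain AGP72, genotype h-. In 3 groups the cells were starved for 2, 4 or 8 h in ePMGT medium without phosphate and with 100 µg/ml cycloheximide. In 3 groups they were starved for the same times in that medium with no drug. The last group is the phosphate-replete culture, at 0 h, in log phase in YES medium with no drug. Every comparison with 0 h therefore joins a medium switch to the removal of phosphate, and these cannot be told apart.

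Transporters carry ions, nutrients and metabolites across the plasma membrane and between the cytoplasm and organelles. In yeasts, many permease genes are transcribed according to the supply of their substrate or of the nutrient class it belongs to, so that the set of transporters at the cell surface changes with the medium. Transporters of the vacuole store or release amino acids, phosphate and metals, and those of the Golgi and endoplasmic reticulum bring in nucleotide sugars for glycosylation. Cycloheximide stops the synthesis of proteins, including any regulator that has to be made anew, and it can also change the stability of mRNAs.

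By the substrate in their product names, 29 members carry amino acids, 14 metal ions, 9 phosphate, sulfate or borate, 9 polyamines, 9 nucleotide sugars, phosphoenolpyruvate or acetyl-CoA, 8 peptides or glutathione, 7 organic acids, 6 vitamins or inositol, 5 nucleobases or nucleosides and 4 urea or ammonium. Another 10 are described by a family or by some other word, and 29 by no substrate at all. The product places 35 members in the plasma membrane, 10 in the vacuole, 10 in the Golgi, the endoplasmic reticulum or (1 of them) the endomembrane system, 2 in the mitochondrion and 1 in the prospore membrane, and it names no membrane for 81. The gene gti1 is included by its wording, although its product is an inducer of gluconate transport.

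The libraries held 22079413 to 33563867 counts, and 6392 genes passed the filter on low counts. Of the 139 members, 133 passed it. The other 6 have no named substrate and had at most 9 counts summed over the 3 libraries of any group (SPAC750.02c, SPBC1348.05, SPBPB2B2.16c, SPBPB10D8.05c, SPBPB10D8.06c and SPBPB10D8.07c). All 6 belong to sets of near-identical genes, whose coding sequences match another member's over at least 99.9% of bases, so reads from these copies could not be assigned with certainty. The starvation label was checked on genes that are not members. The acid phosphatase gene pho1 averaged 28693 counts per 1000000 scaled counts (CPM) at 8 h, against 1591 CPM at 0 h. With cycloheximide pho1 averaged 1435, 1579 and 1112 CPM at 2, 4 and 8 h, so it was not above 0 h in the starved groups with the drug. The phosphate transporter gene pho84 averaged 2005, 2018 and 1382 CPM in those groups, against 959 CPM at 0 h. For the h- label, the M-factor pheromone gene mfm1 averaged 315 CPM at 8 h without drug and the P-cell receptor gene map3 25.3 CPM. In the other 6 groups mfm1 was below map3 (for example 1.53 and 14.7 CPM at 0 h), so this pair does not settle the mating type. Among other M-cell genes, mfm2 and mam1 averaged 58.7 and 56.7 CPM at 0 h, above map3. There mfm3 and mam2 averaged 1.24 and 6.08 CPM, below it. At 8 h without drug these 4 genes averaged 511, 183, 58.6 and 112 CPM, above map3 and the P-cell gene map2 (7.45 CPM). At 2 h with the drug map2 (56.3 CPM) was above mfm2 and mam1 (4.03 and 34.7 CPM). The 8 h levels without drug thus go with the h- label, while the other groups are mixed. Among replicates, the first 8 h library stood furthest apart: its counts differed from the other 8 h libraries with a chi-square per gene of 23.2 and 19.4, while those differed from each other by 3.62. Counts of all members at 8 h without drug are therefore also given without it, and of 46 called changes of named members at 8 h against 0 h, 45 were also called without it, SPBPB8B6.02c being the exception. Of 50 called differences between drug and no drug at 8 h, 47 were, the exceptions being SPBC15C4.04c, SPCC576.17c and stm1. The first library at 2 h with the drug also differed from the others of its group, by 16.0 and 14.7 per gene, while those differed by 6.21. At 4 h with the drug the second library differed from the third by 15.4 per gene, and at 8 h with it the first differed from the third by 14.9. Without the first library at 2 h with the drug, 41 of 42 called changes of named members at that time against 0 h were also called (all but SPCPB1C11.02), and 40 of 41 against no drug (all but mfs3).

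In starved cells more transporter genes were higher than at 0 h than were lower, with and without cycloheximide. A gene is called higher or lower at a Benjamini-Hochberg adjusted p below 0.05 over all genes tested (edgeR quasi-likelihood test) together with a 2-fold or larger change, and only called genes are said to have risen or fallen. CPM are shares of each library, so less RNA of a gene per cell and more RNA of other genes cannot be told apart. At 2 h without drug 20 of the 133 tested members were higher than at 0 h and 1 was lower, beside 3.94% and 1.81% of all genes tested, and the members' median log2 fold change was 0.23. At 4 h 27 were higher and 13 lower, beside 14.2% and 13.9% of all genes, with a median of 0.18. At 8 h 37 were higher and 16 lower, beside 19.0% and 15.6%, with a median of 0.34; without the first 8 h library these counts were 38 and 16. The median over all genes was between -0.0671 and -0.00363 in every comparison with 0 h. Scaling by library size alone moved it to 0.20 at 4 h and 0.19 at 8 h. With that scaling 40 members were higher and 11 lower at 4 h, beside 1154 and 670 of all 6392 genes tested (906 and 889 in the main fit). At 8 h 46 members were then higher and 14 lower, beside 1458 and 782 of all genes (1212 and 997 in the main fit).

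With cycloheximide the counts against 0 h were similar at the 3 times. At 2 h 45 members were higher and 10 lower, beside 17.0% and 14.5% of all genes, and the median was 0.54. At 4 h 43 members were higher and 10 lower, beside 14.8% and 14.8% of all genes, and the median was 0.55. At 8 h 42 members were higher and 11 lower, beside 12.6% and 14.1% of all genes, and the median was 0.52. At matched times the drug was compared with no drug. At 2 h 36 members were higher with the drug and 19 lower, beside 15.8% and 13.5% of all genes, with a median of 0.24. At 4 h 34 members were higher with the drug and 22 lower, beside 19.9% and 20.9% of all genes, with a median of 0.02. At 8 h 38 members were higher with the drug and 27 lower, beside 17.1% and 20.8% of all genes, with a median of 0.20. Without the first 8 h library the 8 h counts were 35 higher and 27 lower. Between starved groups without drug, 8 members were higher and 8 lower at 4 h than at 2 h (7.60% and 6.62% of all genes), and 10 were higher and 2 lower at 8 h than at 4 h (3.77% and 2.78%), or 9 and 3 without the first 8 h library. All genes tested include noncoding RNAs, while the members are protein-coding. Of the 5025 protein-coding genes tested, 15.5% were higher and 15.7% lower at 8 h without drug than at 0 h. At 2 h with the drug against 0 h these shares were 11.9% and 14.3%, and at 8 h against 4 h without drug 1.91% and 2.21%. All comparisons with 0 h share its 3 libraries, and those of drug with no drug share the starved libraries, so their counts are set side by side and no overlap between them is given.

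Members made up 1.09 to 1.12% of all counts in the 0 h libraries. In starved cells without drug the range over libraries was 1.47 to 1.48% (2 h), 1.53 to 1.56% (4 h) and 1.78 to 1.93% (8 h). With cycloheximide it was 2.28 to 2.38% (2 h), 2.12 to 2.20% (4 h) and 2.13 to 2.15% (8 h). No group's range overlapped that of 0 h. The lowest of a member's 7 group means was at 0 h for 46 of the 133, at 8 h without drug for 30, and at 2 h with the drug for 21, while each other group was the lowest for 4 to 12. The highest was at 8 h without drug for 35, at 2 h with the drug for 30, at 8 h with it for 24, at 4 h with it for 17 and at 0 h for 11. The same counts were not made over all genes tested, so whether these are particular to the transporters is not known. The 20 transporter genes set aside by name had 12 higher and 2 lower at 8 h without drug than at 0 h, beside 19.0% and 15.6% of all genes, with a median of 1.51. In the authors' deposited tables, the same thresholds gave 20 members higher and 1 lower at 2 h, 27 and 12 at 4 h, and 39 and 16 at 8 h, each without drug and against 0 h. With cycloheximide the authors' deposited tables gave 47 and 10 at 2 h, 46 and 9 at 4 h, and 43 and 11 at 8 h. The shares of all genes passing the thresholds in the authors' tables were not computed.

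**Figure D1:**
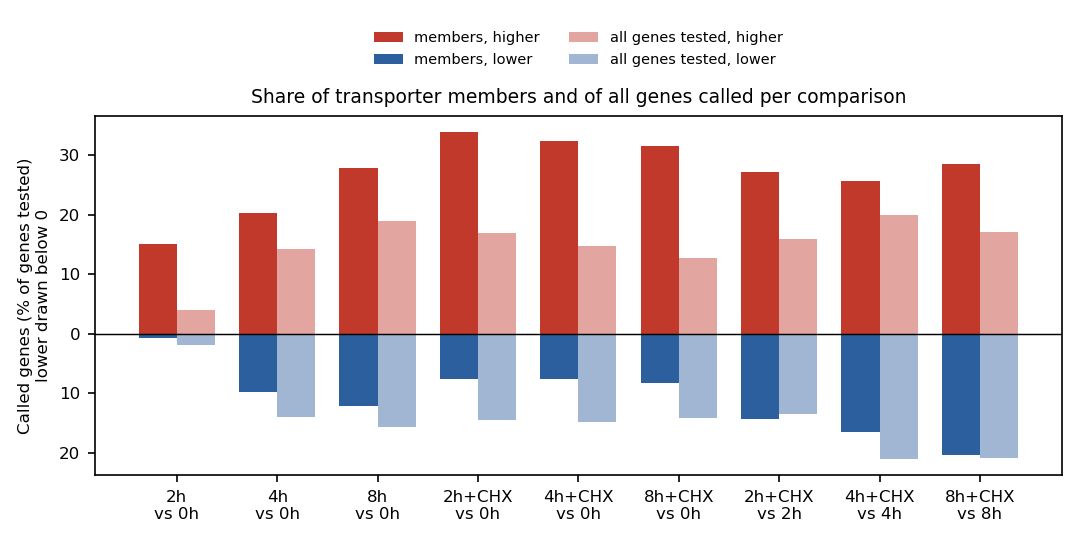
Share of the 133 tested members (dark bars) and of all 6392 genes tested (pale bars) called higher (above 0) or lower (drawn below 0) in 9 comparisons, in percent; CHX marks cycloheximide. The members' bar for higher is the taller one in each comparison, for example 33.8% of members beside 17.0% of all genes at 2 h with the drug against 0 h.

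The genes for the remaining inorganic phosphate transporters moved in different directions. pho841, pho842 and pho843 encode plasma membrane proteins of the same annotation as pho84. pho841 stood at 1318, 1170.3 and 1149.9 CPM at 8 h, against 209, 223 and 227 CPM at 0 h, a log2 fold change of 2.47 ± 0.07 (SE; edgeR, adjusted p = 3.8e-19). Its group mean was 249 CPM at 2 h, which was not called, and 580.3 CPM at 4 h. The coding sequence of pho841 is 83.6% identical to that of pho84 over 93.7% of its length, so some reads may have been shared. pho842 averaged 901 ± 57.5 CPM already at 2 h and 227 ± 7.02 CPM at 0 h (SD, n = 3 each; 1.99 ± 0.06 log2, adjusted p = 1.6e-17), and its mean at 8 h was 826 CPM. pho843 went the other way, with 40.7, 38.5 and 38.7 CPM at 8 h, against 89.4, 90.3 and 86.1 CPM at 0 h (-1.17 ± 0.04 log2, adjusted p = 1.9e-18); scaled by library size alone the change was -0.97 log2 and not called. The libraries of the compared groups did not overlap in any of these 3 called changes.

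With cycloheximide all 3 genes were above 0 h at 2 h and 4 h, pho843 included. pho843 stood at 268, 276 and 277 CPM at 4 h with the drug, against 36.1, 37.7 and 37.3 CPM at 4 h without it, a log2 difference of 2.88 ± 0.04 (adjusted p = 8.1e-25). pho841 was higher with the drug at 2 h, at 686, 759 and 691 CPM against 249.9, 254 and 242 CPM without it (1.52 ± 0.07 log2). At 8 h it was lower with the drug, at 383, 364 and 361 CPM against 1318, 1170.3 and 1149.9 CPM (-1.72 ± 0.07 log2). The difference between drug and no drug thus changed sign between 2 h and 8 h, and the test of that change gave -3.23 ± 0.10 log2 (adjusted p = 4.1e-18). pho842 differed by 0.79 ± 0.05 log2 at 2 h and 0.73 ± 0.05 log2 at 8 h, which was not called. plt1, whose product is a phosphate transporter with no membrane named, had group means of 127 to 196 CPM and was called in no comparison with 0 h.

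Of the sulfate transporters in the same class, sul2 rose early without the drug. It stood at 95.6, 102 and 103 CPM at 2 h, against 25.7, 27.3 and 26.5 CPM at 0 h (1.92 ± 0.07 log2), and with the drug at 2 h it was at 26.6, 29.0 and 27.5 CPM, so that the 2 h groups with and without the drug did not overlap. sul1 was higher with the drug at 2 h, at 257, 278 and 273 CPM against 104, 117 and 111 CPM without it (1.28 ± 0.06 log2). The borate exporter gene bor1 was called in none of the 6 comparisons with 0 h. In all, 3 of the 9 members of the class were higher and 1 lower at 8 h, beside 19.0% and 15.6% of all genes (median 0.63), and 5 were higher at 2 h with the drug, beside 17.0% (median 1.24).

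More metal ion transporters were called higher than 0 h in the groups with cycloheximide than in those without it, and the difference between these counts was not tested. Of 14 members, 8, 9 and 8 were higher than at 0 h at 2, 4 and 8 h with the drug (medians 1.24, 1.23 and 1.20), against 3, 3 and 2 at 2, 4 and 8 h without it (medians 0.34, 0.26 and 0.38). As shares these are 57.1, 64.3 and 57.1% with the drug, beside 17.0, 14.8 and 12.6% of all genes. Without drug they are 21.4, 21.4 and 14.3%, beside 3.94, 14.2 and 19.0% of all genes, so that at 8 h the share was below that of all genes. zrt1 encodes the zinc uptake transporter of the plasma membrane. It stood at 3031, 3153 and 3080.4 CPM at 2 h with the drug, at 765, 817 and 763 CPM at 2 h without it and at 152, 151 and 152 CPM at 0 h. The 3 groups did not overlap, which the choice of zrt1 required for both comparisons with 0 h. At 2 h zrt1 was 20.4-fold above 0 h with the drug and 5.16-fold without it. The difference between the drug and no drug at 2 h was 1.98 ± 0.06 log2 (adjusted p = 2.1e-18). Its means were lower at the later time, at 938 CPM at 8 h with the drug and 260.3 CPM at 8 h without it, where the change from 0 h was 0.78 ± 0.06 log2 and not called.

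The mitochondrial iron transporter gene mmt1 and the calcium transporter gene sst1 of the endoplasmic reticulum rose in starved cells without drug. mmt1 stood at 129.6, 127 and 122 CPM at 8 h, against 14.8, 16.6 and 16.0 CPM at 0 h (3.00 ± 0.05 log2). sst1 stood at 315, 308 and 318 CPM at 8 h, against 65.4, 66.4 and 68.7 CPM at 0 h (2.23 ± 0.05 log2), and at 8 h with the drug it was -1.50 ± 0.04 log2 from the cells without it. The libraries of neither gene overlapped between 8 h and 0 h. SPAC24H6.13, annotated as a calcium transporter, showed the other pattern, with 709, 713 and 635 CPM at 2 h with the drug, against 137, 143 and 133 CPM without it (2.31 ± 0.06 log2). mfc1, a copper transporter gene of the prospore membrane, which is formed in meiosis, averaged 28.1 ± 3.66 CPM at 2 h with the drug and 3.13 ± 0.254 CPM without it (SD, n = 3 each; 3.16 ± 0.12 log2). The iron and zinc transporter gene fet4, the magnesium transporter gene mrs2 and the calcium transporter gene rsn1 were each higher with the drug than without it at 4 h and 8 h, by 1.55, 1.71 and 1.81 log2 at 4 h and 1.83, 1.11 and 1.87 log2 at 8 h.

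Amino acid transporters, the largest class with a named substrate, had calls in both directions. Of 29 members, 11 (37.9%) were higher and 6 (20.7%) lower at 8 h than at 0 h, beside 19.0% and 15.6% of all genes (median 0.72). At 8 h 10 (34.5%) were higher and 8 (27.6%) lower with the drug than without it, beside 17.1% and 20.8% of all genes (median 0.63). In both comparisons the share that was lower lay nearer to that of all genes than the share that was higher. Without the first 8 h library the counts were 12 and 6 against 0 h, and 8 and 8 for the drug. SPBPB2B2.01 had 295, 310.4 and 292 CPM at 8 h, against 28.9, 32.3 and 30.4 CPM at 0 h (3.30 ± 0.11 log2, adjusted p = 3.6e-18). With the drug it was at 42.6 and 30.1 CPM at 2 and 4 h, and only at 8 h did it reach 263 CPM. SPAC1039.01 followed a like course, with 301, 276 and 293 CPM at 2 h without drug, against 66.9, 66.2 and 66.1 CPM at 0 h, and with the drug 64.8, 62.1 and 62.8 CPM at 4 h but 463, 395 and 396 CPM at 8 h. SPCC794.04c stood at 94.3, 97.7 and 91.9 CPM at 8 h, against 10.3, 9.04 and 10.3 CPM at 0 h (3.25 ± 0.13 log2). These 3 genes have no symbol, and the annotation does not give which amino acids they carry.

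The genes for the basic amino acid permeases Cat1 and Can1, which take up arginine and lysine, were higher in starved cells with the drug than without it. cat1 stood at 179, 179 and 180.3 CPM at 8 h with the drug, against 51.0, 54.0 and 50.5 CPM at 8 h without it (1.79 ± 0.04 log2), and its 8 h level without drug was -1.69 log2 from 0 h. can1 stood at 220.1, 221 and 218 CPM at 4 h with the drug, against 50.4, 52.1 and 50.9 CPM without it (adjusted p = 3.6e-23). Neither pair of groups overlapped. Among vacuolar transporters, atg22, which in budding yeast exports amino acids released by autophagy, rose: it was at 163, 168 and 167 CPM at 8 h, against 32.6, 32.4 and 35.0 CPM at 0 h (2.31 ± 0.04 log2). stm1, also of the vacuole, fell: it was at 96.1, 101 and 104 CPM at 8 h, against 310.1, 299 and 308 CPM at 0 h (-1.60 ± 0.04 log2). Another vacuolar gene, avt3, had group means of 127 to 176 CPM and was called in none of the 6 comparisons with 0 h. fnx2, a further amino acid transporter gene of the vacuole, rose at 8 h with the drug, to a level 1.27 ± 0.05 log2 above 0 h.

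SPBPB10D8.01, annotated as a cysteine transporter, fell the most with cycloheximide in this class. It stood at 1.88, 2.30 and 1.80 CPM at 2 h with the drug, against 51.0, 59.5 and 56.7 CPM at 2 h without it (-4.80 ± 0.11 log2, adjusted p = 1.6e-20), and at 0.919 CPM at 8 h with the drug. The 2 h groups did not overlap, which the choice of this gene required. Without drug the gene was -1.14 ± 0.08 log2 from 0 h at 8 h (-0.93 and not called with library size alone). aat1 and SPBC359.01 have coding sequences that are 84.4% identical over 83.6% of their length, so their counts are less certain. aat1, a permease gene of the plasma membrane, was at 107, 104 and 102 CPM at 8 h with the drug, against 20.7, 26.8 and 26.6 CPM without it (2.08 ± 0.07 log2). SPBC359.01 was at 12.4, 11.5 and 9.70 CPM at 2 h with the drug, against 69.3, 68.2 and 58.9 CPM without it (-2.53 ± 0.09 log2). SPAC16A10.01, of the ThrE family, was higher than at 0 h at every time with the drug, by 2.80, 2.91 and 2.58 log2, and per1, a permease gene of the plasma membrane, by 1.63, 1.87 and 3.09 log2.

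**Figure D2:**
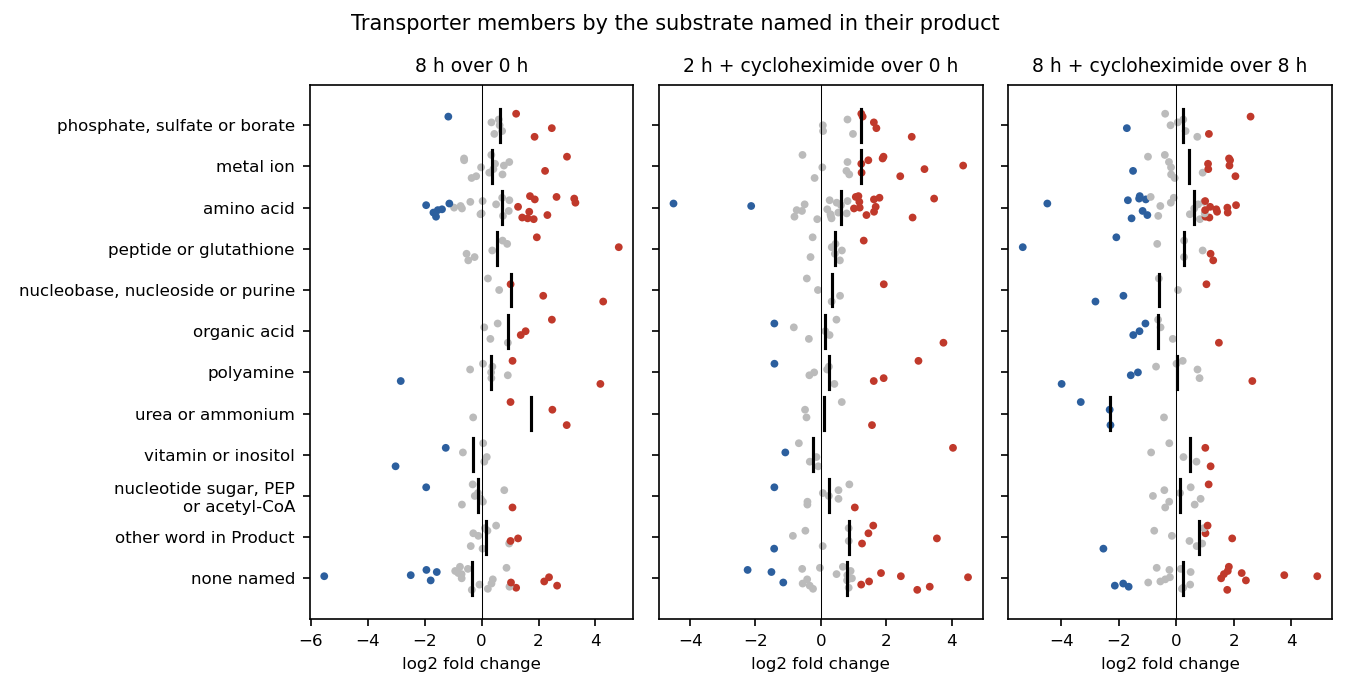
Log2 fold changes of the 133 tested members by the substrate in their product, for 8 h over 0 h, 2 h with cycloheximide over 0 h, and 8 h with cycloheximide over 8 h without it; each point is a gene (red called higher, blue called lower, grey not called) and black ticks are class medians. Metal ion transporters have a median of 1.24 at 2 h with the drug over 0 h and 0.38 at 8 h over 0 h.

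The largest rises at 8 h without drug were in single members of 3 classes, and all 3 were lower at 8 h with cycloheximide than at 8 h without it. opt3, of the oligopeptide transporter family, stood at 68.8, 65.6 and 62.0 CPM at 8 h, against 2.30, 2.42 and 2.25 CPM at 0 h (4.82 ± 0.11 log2, adjusted p = 1.1e-20). At 8 h with the drug it was at 1.69, 1.49 and 1.72 CPM, -5.33 ± 0.11 log2 from the 8 h cells without it. The polyamine transporter gene mfs1, for spermidine at the plasma membrane, stood at 1200.0, 1218 and 1157 CPM at 8 h, against 63.1, 59.1 and 75.3 CPM at 0 h (4.17 ± 0.07 log2). With the drug it stayed between 75.5 and 88.0 CPM in group mean, and at 8 h it was -3.98 ± 0.07 log2 from the cells without drug. The nucleobase transporter gene SPAC1399.01c stood at 598, 697 and 729.6 CPM at 8 h, against 33.7, 36.3 and 34.8 CPM at 0 h (4.27 ± 0.07 log2), and at 104, 92.5 and 93.2 CPM at 8 h with the drug (-2.80 ± 0.06 log2 from no drug). In each of these 6 pairs of groups the libraries did not overlap, as the choice of members with the highest or lowest changes required.

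The rest of these classes moved less or otherwise. Of the other peptide transporters, the dipeptide transporter gene SPCC757.13 rose: it was at 69.7 CPM at 8 h, against 18.2 CPM at 0 h (1.94 ± 0.07 log2). The vacuolar phytochelatin transporter genes hmt1 and abc2, which take part in metal tolerance, and the glutathione uptake gene pgt1 were called in no comparison of starved cells without drug with 0 h. hmt1 was 1.23 ± 0.04 log2 higher with the drug than without it at 2 h, and pgt1 and abc2 were 1.29 ± 0.05 and 1.19 ± 0.03 log2 higher with it at 8 h. Among the 9 polyamine transporters, SPBC36.01c fell, with 5.41, 5.59 and 5.15 CPM at 8 h, against 39.4, 37.7 and 39.0 CPM at 0 h (-2.84 ± 0.07 log2). With the drug it was at 35.3, 33.2 and 32.8 CPM at 8 h (2.64 ± 0.07 log2 from no drug). SPCC569.05c, also of the spermidine family, averaged 823 ± 48.7 CPM at 2 h with the drug and 189 ± 3.30 CPM without it (SD, n = 3 each; 2.12 ± 0.05 log2). caf5, of the spermine family, was called in none of the comparisons with 0 h.

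The purine transporter gene SPBC887.17, of the same class as SPAC1399.01c, was high with the drug. Annotated for guanine and adenine, it averaged 776 ± 27.4 CPM at 4 h with the drug and 99.5 ± 0.678 CPM at 4 h without it (SD, n = 3 each; 2.96 ± 0.05 log2). Without drug its group means ran 184, 238, 99.5 and 372 CPM at 0, 2, 4 and 8 h, and the change from 0 h at 8 h of 1.02 ± 0.05 log2 sits at the threshold: it was 0.996 without the third 8 h library and 0.998 without the first 0 h library, and then not called. SPAC29B12.14c, a purine transporter gene of the plasma membrane, rose late: it averaged 227 ± 6.99 CPM at 8 h and 76.1 ± 5.70 CPM at 4 h (SD, n = 3 each; 1.58 ± 0.04 log2 between these times). In the class of 5, 3 were higher at 8 h than at 4 h without drug, beside 3.77% of all genes.

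Of the 7 organic acid transporters, 3 were higher at 2 h, 3 at 4 h and 3 at 8 h without drug, beside 3.94, 14.2 and 19.0% of all genes. The carboxylic acid transporter gene SPBC1683.12 stood at 121, 119 and 118 CPM at 8 h, against 20.2, 22.5 and 21.9 CPM at 0 h (2.47 ± 0.07 log2). SPAC11D3.18c, of the same annotation, was lower with the drug at 4 h, at 18.6, 19.1 and 18.4 CPM against 78.2, 79.0 and 80.5 CPM without it (-2.08 ± 0.06 log2). SPAC1002.16c, a further carboxylic acid transporter gene, was higher with the drug at 2 h, at 139.5, 138 and 136 CPM against 22.3, 24.2 and 25.8 CPM without it (2.52 ± 0.05 log2). In none of these 3 comparisons did the libraries overlap. The acetate transporter gene mug86 was -1.72 ± 0.12 log2 from no drug at 2 h with the drug.

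The 3 urea transporter genes were lowly expressed and rose by 8 h without drug. SPBC23G7.13c had 28.6, 27.9 and 31.3 CPM at 8 h, against 5.46, 4.25 and 5.81 CPM at 0 h (2.49 ± 0.13 log2), and these libraries did not overlap. At 8 h with the drug it was at 5.83, 5.36 and 6.54 CPM (-2.31 ± 0.12 log2 from no drug). SPAC869.03c and SPBPB8B6.02c averaged 1.82 and 1.68 CPM at 8 h and 0.223 and 0.810 CPM at 0 h, so their changes rest on few counts, and that of SPBPB8B6.02c (1.01 ± 0.22 log2) was no longer called without the first 0 h library (0.97 log2), the second 0 h library (0.88 log2) or the first 8 h library (0.95 log2). The ammonium transporter gene amf1 was called in none of the comparisons with 0 h.

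Of the 6 vitamin and inositol transporters, vht1 had the lowest log2 fold change at 8 h without drug, which was also the lowest of the tested members whose product names a substrate. vht1 encodes the uptake transporter for vitamin H (biotin). It stood at 132, 126 and 127 CPM at 8 h, against 976, 1095 and 1066 CPM at 0 h (-3.03 ± 0.08 log2, adjusted p = 8.2e-20). With the drug it was at 959, 1094 and 911 CPM at 2 h, where the change from 0 h was not called (-0.08 ± 0.07 log2), and at 292, 292 and 297 CPM at 8 h, 1.20 ± 0.07 log2 above no drug. SPCC576.17c, annotated for forms of vitamin B6, had a brief high level with the drug, at 256, 287 and 242 CPM at 2 h with it, against 12.7, 11.8 and 11.4 CPM without it (4.45 ± 0.08 log2). By 4 h with the drug it was at 27.7 CPM and by 8 h at 13.3 CPM. The pantothenate uptake gene liz1 was lower than at 0 h at each time with the drug, with log2 changes of -1.09, -1.35 and -1.53, and the change at 2 h was -0.98 and not called with library size alone. The myo-inositol transporter gene itr1 was called in none of the 6 comparisons with 0 h.

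**Figure D3:**
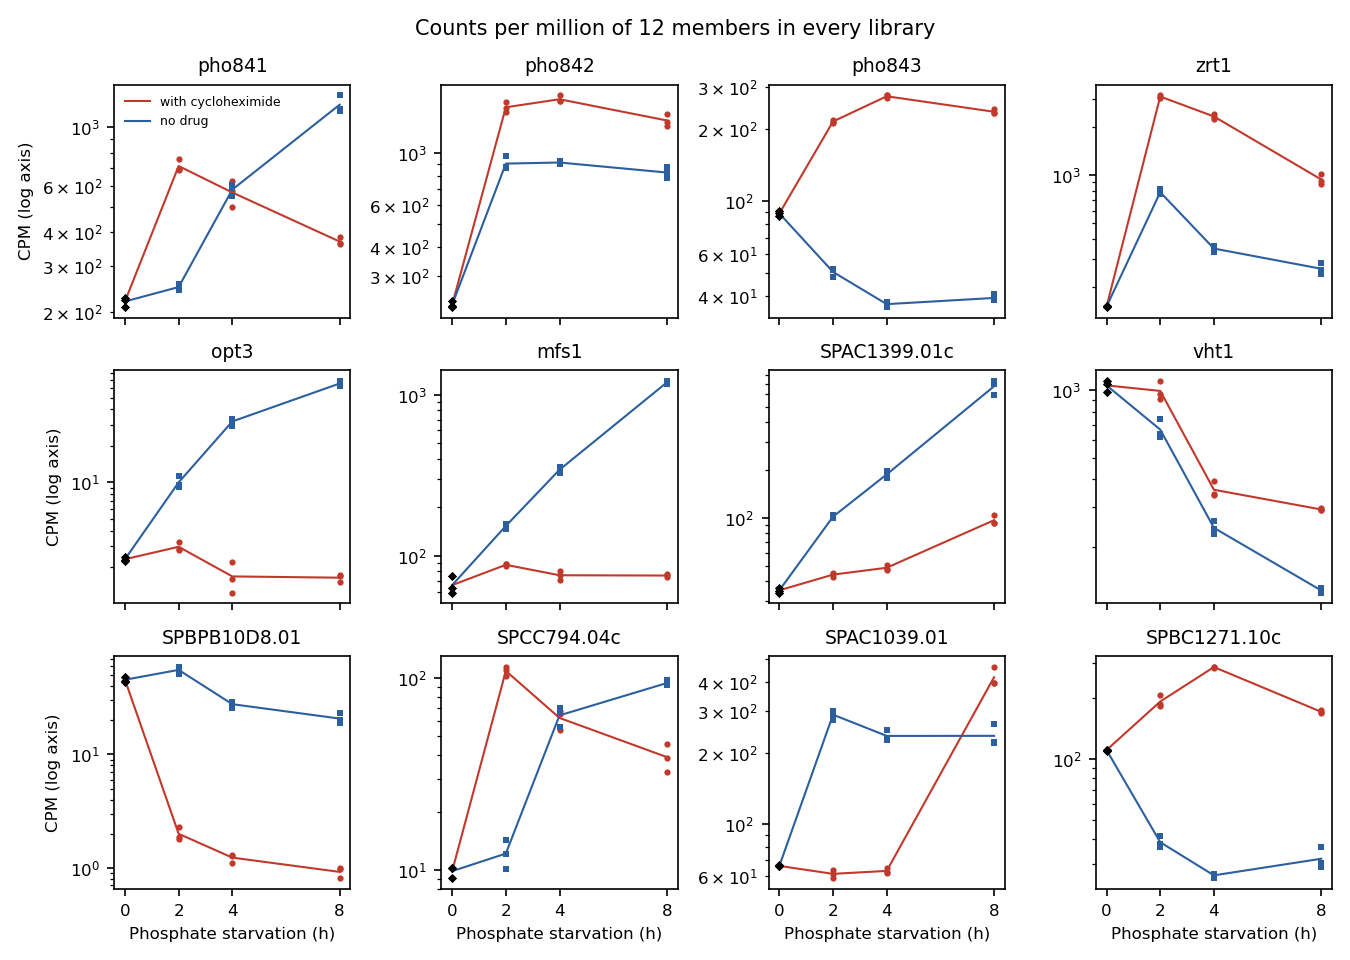
CPM (log axis) of 12 members in every library against hours of starvation; lines join group means, red circles are groups with cycloheximide, blue squares groups with no drug, and black diamonds the 0 h libraries, which begin both lines. opt3, mfs1 and SPAC1399.01c climb without drug and lie lower with it, while zrt1, pho843 and SPBC1271.10c lie higher with it at each time.

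Transporters of the Golgi and endoplasmic reticulum include those that bring in nucleotide sugars. Of the 9 members for nucleotide sugars, phosphoenolpyruvate or acetyl-CoA, 1 was higher and 1 lower at 8 h without drug, beside 19.0% and 15.6% of all genes. hut1, for UDP-glucose entry into the endoplasmic reticulum, was the one that fell, with 23.5 ± 2.18 CPM at 8 h and 90.9 ± 1.46 CPM at 0 h (SD, n = 3 each; -1.95 ± 0.06 log2). gms2, for UDP-galactose in the Golgi, was the one that rose, with 138, 159 and 155 CPM at 8 h, against 72.4, 69.5 and 71.3 CPM at 0 h (1.08 ± 0.06 log2). Neither gene's libraries overlapped between the groups, which the choice of hut1 required. By membrane, 12 of 35 plasma membrane members were higher and 4 lower at 8 h (median 0.72), 1 of 10 vacuolar members was higher and 1 lower (median -0.15), and 2 of 10 members in the Golgi or endoplasmic reticulum were higher and 1 lower (median -0.08). Over all genes 19.0% were higher and 15.6% lower, so the counts for the vacuole and for the Golgi or endoplasmic reticulum lie near or below that background. At 2 h with the drug against 0 h, the plasma membrane members had 14 higher and 2 lower, the vacuolar ones 3 higher, and those of the Golgi or endoplasmic reticulum 1 higher and 1 lower, beside 17.0% and 14.5% of all genes. The differences between these classes were not tested.

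Members without a named substrate included some of the largest changes. SPBC1271.10c, which lies next to tgp1, stood at 284, 288 and 288 CPM at 4 h with the drug, at 25.5, 26.9 and 26.8 CPM at 4 h without it and at 110.1, 111 and 111 CPM at 0 h. It fell without drug (-2.07 ± 0.06 log2 from 0 h), and the difference between drug and no drug was 3.44 ± 0.06 log2 (adjusted p = 2.2e-22). tgp1 itself averaged 1016 CPM at 4 h without drug and 17.4 CPM at 0 h. SPCC1529.01 stood at 8.99, 8.54 and 6.77 CPM at 8 h, against 44.5, 46.5 and 46.4 CPM at 0 h (-2.49 ± 0.08 log2), and at 105, 108 and 117 CPM at 8 h with the drug (3.75 ± 0.07 log2 from no drug). SPAC3H1.06c rose without drug, with 402, 395 and 399 CPM at 8 h, against 62.8, 65.1 and 62.6 CPM at 0 h (2.65 ± 0.04 log2), and its coding sequence is 89.1% identical to that of SPAC1399.02, which was called in none of the comparisons with 0 h. SPCC320.08 stood at 1025, 1016 and 1060.0 CPM at 4 h with the drug, against 113, 121 and 124 CPM without it (3.12 ± 0.05 log2). SPCC613.01 was lower than at 0 h in both courses, with changes of -1.94 ± 0.04 log2 at 8 h without drug and -2.18 ± 0.04 log2 at 8 h with it. SPCC330.07c was -1.51 ± 0.07 log2 from 0 h at 2 h with the drug.

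The member with the lowest log2 fold change at 8 h, SPBPB10D8.04c, rests on few counts. It had 1 count over the 3 libraries at 8 h, against 54 counts at 0 h, and its coding sequence is identical to those of 3 other members. With the drug at 2 h it averaged 4.21 CPM. Of the members described by family, the aquaporin gene SPAC977.17 of the plasma membrane stood at 489, 706 and 623 CPM at 2 h with the drug, against 53.9, 52.2 and 49.6 CPM at 0 h (3.55 ± 0.11 log2), and at 81.6, 78.8 and 76.3 CPM at 2 h without it. The leptomycin exporter gene pmd1, known for multidrug resistance, was 1.60, 1.83 and 1.60 log2 above 0 h at 2, 4 and 8 h with the drug, and without drug it was not called at any time. SPAC11D3.06, of the MatE family, was lower with the drug, at 4.10, 4.75 and 4.16 CPM at 8 h, against 26.7, 23.2 and 25.8 CPM without it (-2.53 ± 0.09 log2).

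Whether the drug's difference changed with time was tested directly, as the log2 difference between drug and no drug at 8 h minus that at 2 h. It was called positive for 20 members and negative for 33, beside 12.6% and 19.4% of all genes, and these counts were 20 and 33 without the first 8 h library. Of the protein-coding genes tested, 13.2% were called positive and 12.9% negative. SPCC794.04c had 103, 110.4 and 115 CPM at 2 h with the drug, against 14.3, 12.2 and 10.1 CPM without it, and 45.7, 38.5 and 32.5 CPM at 8 h with it, against 94.3, 97.7 and 91.9 CPM without it. Its drug difference was thus 3.16 log2 at 2 h and -1.29 log2 at 8 h, a change of -4.45 ± 0.16 log2 (edgeR, adjusted p = 9.8e-17). SPAC1039.01 moved the opposite way: its drug difference was -2.24 log2 at 2 h and 0.82 log2 at 8 h, a change of 3.06 ± 0.09 log2 (adjusted p = 6.6e-18). SPAC1B3.15c, with no named substrate and next to vht1, was at 223, 265 and 267 CPM at 2 h with the drug, against 39.2, 38.9 and 39.0 CPM without it, and at 16.1, 16.1 and 14.7 CPM at 8 h with the drug, against 49.7, 48.1 and 50.1 CPM without it (-4.34 ± 0.09 log2). In SPCC794.04c and SPAC1B3.15c every library with the drug was thus above those without it at 2 h and below them at 8 h. SPBC530.02, likewise without a named substrate, was at 77.2, 68.1 and 69.0 CPM at 2 h with the drug, against 4.59, 4.34 and 4.83 CPM without it, while at 8 h the groups were at 13.8, 14.6 and 13.5 CPM with the drug and 17.4, 15.3 and 16.3 CPM without it (-4.18 ± 0.10 log2), with no overlap at either time.

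**Figure D4:**
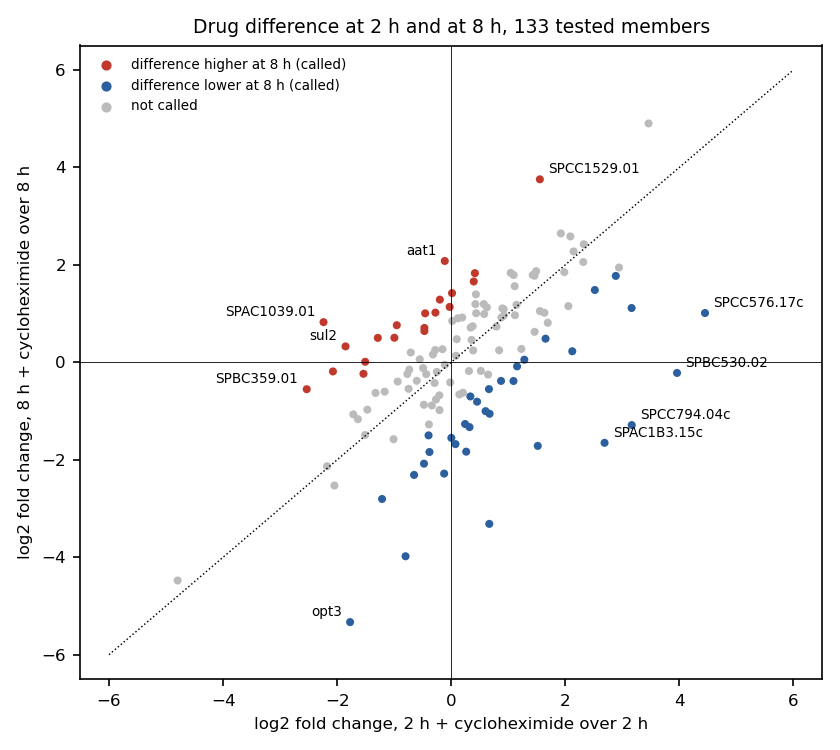
Log2 fold change of cycloheximide over no drug at 8 h (vertical) against that at 2 h (horizontal) for the 133 tested members; the dotted line marks equal values, red points have a drug difference called higher at 8 h (20 genes), blue points one called lower (33 genes). SPCC794.04c and SPAC1B3.15c lie above 0 at 2 h and below 0 at 8 h, and opt3 is the lowest point at 8 h.

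Neighbouring transporter genes did not always share a course. The table holds 19 pairs of transporter genes that lie next to each other, members and set-aside genes together. In the run SPBC530.15c, SPBC36.01c, SPBC36.02c and mfs3, all for spermidine, the changes at 8 h were -0.41 ± 0.04, -2.84 ± 0.07, 0.34 ± 0.09 and 0.92 ± 0.16 log2, so that 1 of 4 was called. In the pair SPCC794.03 and SPCC794.04c both rose at 8 h, by 1.87 ± 0.13 and 3.25 ± 0.13 log2. In the pair SPCPB1C11.02 and SPCPB1C11.03, an amino acid and a cysteine transporter gene, both rose as well, by 2.63 ± 0.16 and 1.70 ± 0.04 log2. In the pair SPAC1B3.15c and vht1 the changes were 0.98 ± 0.07 and -3.03 ± 0.08 log2.

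For 13 members the table also holds an antisense RNA named after the gene. The kit keeps strand, but the sources used here do not give how counting used strand, and reads of a gene and its antisense partner may not be fully separate. The opt3 antisense RNA averaged 18.5 CPM at 8 h and 45.2 CPM at 0 h (-1.29 ± 0.06 log2), while opt3 itself averaged 65.5 CPM at 8 h and 2.32 CPM at 0 h. The mfs1 antisense RNA averaged 1.92 CPM at 8 h and 8.85 CPM at 0 h (-2.21 ± 0.11 log2). For the amino acid transporter gene SPBC1652.02 the levels ran the other way: its antisense RNA averaged 66.2 CPM at 8 h and 0.861 CPM at 0 h (6.30 ± 0.23 log2), while the gene averaged 52.3 CPM at 8 h and 138 CPM at 0 h (-1.39 ± 0.10 log2). A gene and its antisense RNA did not always move in opposite directions: for caf5 the antisense RNA differed by 1.60 ± 0.10 log2 at 8 h and the gene by 0.38 ± 0.06 log2, and for SPBC15C4.04c both were lower, with changes of -1.72 ± 0.14 and -1.54 ± 0.05 log2.

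**Figure D5:**
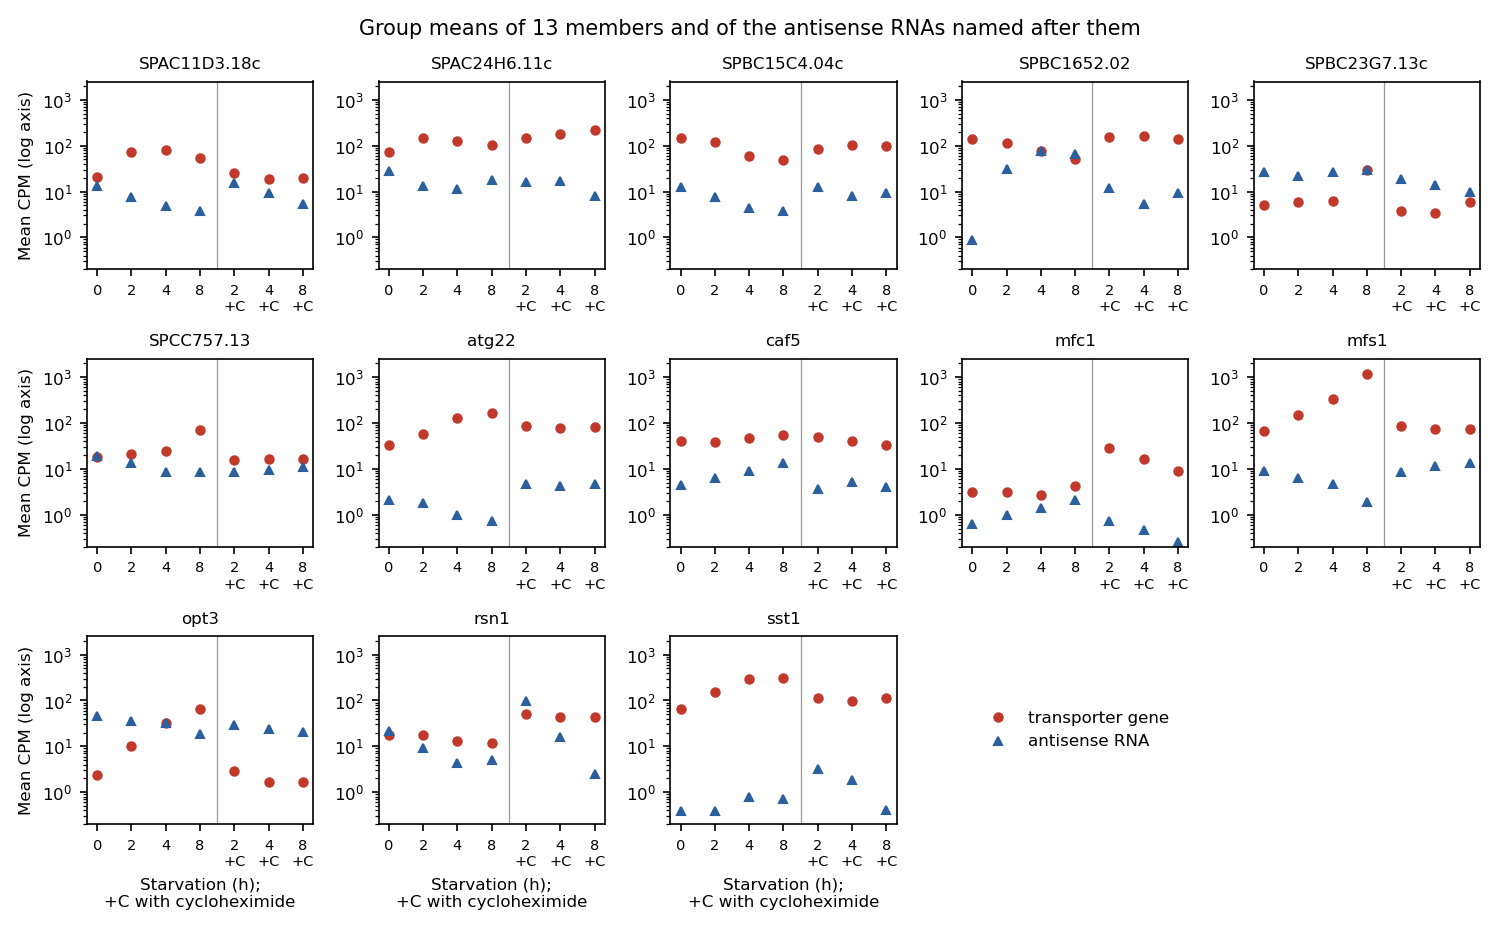
Group mean CPM (log axis) of 13 members (red circles) and of the antisense RNAs named after them (blue triangles) at 0, 2, 4 and 8 h of starvation without drug (left of the line) and with cycloheximide (right). The opt3 gene lies below its antisense RNA at 0 h (2.32 and 45.2 CPM) and above it at 8 h without drug (65.5 and 18.5 CPM). It lies below it in every group given cycloheximide.

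Per kilobase of gene, the most abundant member changed from group to group. At 0 h it was vht1, at 472 CPM per kb. At 2 h without drug it was zrt1, at 363 CPM per kb, at 4 h pho842, at 343 CPM per kb, and at 8 h mfs1, at 538 CPM per kb, close to pho841, at 533 CPM per kb. With the drug it was zrt1 at 2 h and 4 h, at 1434 and 1077 CPM per kb, and pho842 at 8 h, at 516 CPM per kb. The median over the 133 tested members was at most 37.7 CPM per kb in any of the 7 groups.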

How the data were processed

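Polyadenylated RNA from 21 libraries (7 groups of 3, by the sample titles) was sequenced in pairs from stranded libraries, per the labels. The authors deposited whole-number counts for 6988 genes, not normalized. The submitters' processing notes name the build ASM294v2, the tools HISAT2 2.1.0 and HTSeq 0.10.0, and also SAMtools, DESeq and DESeq2; settings, including any use of strand, are not stated there. The authors' comparison tables hold a log2 fold change, a p-value and an adjusted p-value per gene, per the file headers. They gave symbols, products and counts of calls set beside those computed here, and entered no test.

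All genes were tested in 1 fit of the 21 libraries with edgeR 4.0.16 in R 4.3.3 (quasi-likelihood test, TMM scaling, Benjamini-Hochberg adjustment). Its default low-count filter left out 596 genes. From this fit 12 comparisons were drawn. The SE is the log2 fold change divided by the square root of F, and CPM use TMM-scaled totals. Substrate and membrane were read from words of the product.

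Members and lists were chosen with earlier results of these data known. Named are, per comparison, the 5 highest and 5 lowest called members whose libraries do not overlap and whose higher group has at least 100 scaled counts (overlap was not asked of the test of the drug across times). To these come the extremes of each substrate class at 8 h against 0 h and for the drug at 4 h, and a short list of well-known genes, 50 members in all. Another 33 were named after their values were seen, to complete a family, class or pair, and the genes in the plot of time courses were picked likewise. For members named as the 5 highest or 5 lowest, the lack of overlap follows from that choice. It is also met by small changes, such as -0.04 log2 for avt3 at 8 h against 0 h.

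Near-identical pairs (at least 80% identity and 80% of the length) were sought with BLAST 2.17.0 in RefSeq coding sequences of build ASM294v3, in place of the proteins first planned. That build also gave neighbours. Promoter motifs were not searched. The script for the gene test was also run on simulated counts of 8 h and 0 h, with the same spread for every gene. That run cannot show how the test handles spread that differs between genes or a library that stands apart, and no result here rests on it. Alternatives were RLE scaling, scaling by library size only, dropping the filter, a stricter filter (a mean of at least 100 counts), the Wald test of DESeq2 1.42.0, a fit of the compared groups alone, a replicate block and each library left out. The p-values rest on the spread between libraries within groups, estimated over all 7 groups in 1 fit and moderated across genes. They do not measure the spread of the compared groups alone. Whether the 3 libraries of a group came from separate cultures is known only from the label of biological replicates.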

Additional observations from a re-analysis of the deposited data

Results flagged for a closer look

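The difference between cycloheximide and no drug at 8 h was tested against that at 2 h, and the 5 members with the highest and the 5 with the lowest called change stand out (log2 difference at 8 h minus that at 2 h, with its SE; edgeR quasi-likelihood test). The change was -4.45 ± 0.16 for SPCC794.04c, -4.34 ± 0.09 for SPAC1B3.15c, -4.18 ± 0.10 for SPBC530.02, -3.56 ± 0.19 for opt3 and -3.44 ± 0.14 for SPCC576.17c. It was 3.06 ± 0.09 for SPAC1039.01, 2.20 ± 0.10 for SPCC1529.01, 2.19 ± 0.10 for aat1, 2.18 ± 0.09 for sul2 and 1.98 ± 0.12 for SPBC359.01, with the last sharing much of its coding sequence with aat1. The adjusted p-values of all 10 lay between 3.5e-20 and 1.8e-12. In SPCC794.04c and SPAC1B3.15c the drug groups were above those without drug at 2 h and below them at 8 h in all 3 libraries of each group. In SPCC576.17c they were above at both times, with changes of 4.45 log2 at 2 h and 1.01 log2 at 8 h, and in opt3 below at both, with changes of -1.77 and -5.33 log2. The cause of these changes was not tested.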

How the results depend on the processing

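Of 324 recomputed counts of members called higher or lower (24 counts over 12 comparisons under 7 settings, and 156 with a library of the compared groups left out), 1 moved by more than 1.5 times: with library size alone, 13 members in place of 8 were higher at 4 h than at 2 h, and that scaling shifts the median of all genes by 0.12 log2. Over all 6392 genes tested, 609 in place of 486 were then higher at 4 h than at 2 h. At 8 h with the drug against 0 h, library size alone shifts the median of all genes to 0.18 log2, with 54 members higher and 9 lower. Over all genes tested 1100 were then higher and 635 lower, in place of 808 and 903. Of 413 called log2 fold changes of named members, 0 turned round and 29 lost the call in at least 1 alternative. Most of these members were named for large called changes or after their values were seen. Their calls therefore do not speak for members that are not named. Leaving out 1 library at a time gave 36 to 39 members higher at 8 h against 0 h, 44 to 46 at 2 h with the drug against 0 h and 35 to 38 at 8 h with the drug against no drug. The replicate numbers were not used to pair the samples. Same-numbered libraries of different groups deviated together with correlations of -0.29 to 0.37 (median 0.04). For libraries with other numbers these were -0.36 to 0.44 (median -0.02). These ranges show no clear pairing but cannot exclude it. With the replicate number as a block, 37 members were higher and 16 lower at 8 h. The limits are 3 libraries per group, a change of medium in every comparison with 0 h, an unstated strand setting and near-identical gene copies.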
